A study of Rattus norvegicus with 6 samples.

Results

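The neurotrophin genes Bdnf and Ntf3 and the receptor genes Ngfr, Ntrk2, Ntrk3 and Sort1 were followed in Schwann cell precursors (SCPs) and repair Schwann cells (RSCs) of the rat. The members were chosen by gene symbol, and all 6 were found among the 29468 symbols of the expression tables. The study asked how Schwann cells of different stages differ in their support of axon regeneration, and RNA of its embryonic and its repair cells was sequenced. The 3 SCP samples came from wild type LEWIS embryos at embryonic day 14, from the sciatic nerves of both sides and the brachial plexus, with no treatment. The 3 RSC samples came from wild type LEWIS rats aged 10 weeks, from the nerve segment distal to a cut of the sciatic nerve made 1 week earlier. Wild type is the genotype given in the labels, whereas the study's methods state that cells for grafting were taken from LEWIS rats carrying a red fluorescent transgene. Both kinds of nerve were dissociated with enzymes, more strongly for RSCs, and cells that stuck to uncoated flasks, such as fibroblasts and macrophages, were discarded, so that only floating cells were used. The groups therefore differ in age, tissue, injury and dissociation together, which cannot be told apart. Whether a preparation pooled several animals is not stated, so p-values measure only the spread between these samples.

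Neurotrophins are secreted as precursors and bind 2 kinds of receptor. The Trk receptors are tyrosine kinases, TrkB (Ntrk2) for BDNF and NT-4 and TrkC (Ntrk3) for NT-3, whereas the p75 neurotrophin receptor (Ngfr) binds all neurotrophins and joins with sortilin (Sort1) to bind their uncleaved precursors. In peripheral nerve p75 marks precursors, immature cells and the denervated Schwann cells of a cut nerve, and truncated Trk forms without a kinase are known in glia.

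Expression was given as FPKM, a fragment count corrected for transcript length and for the mapped total, which Cufflinks estimated for each transcript. FPKM of the named transcripts of a gene were summed, and RSCs were compared with SCPs by limma on log2(FPKM + 1), where a gene was called at an unadjusted two-sided p under 0.01. Because 1 was added to each value, fold changes of low genes are understated. The tables hold no counts, so the absolute depth is unknown. Relative to the deepest sample, coverage per FPKM, a sign of depth, lay between 0.789 and 0.841 in RSCs and between 0.878 and 1.00 in SCPs. Sox10, the transcription factor of the Schwann cell lineage, was at 175 to 181 FPKM in SCPs and at 143 to 149 FPKM in RSCs. RSCs were higher in the summed FPKM of 7 fibroblast markers, at 4308 to 6738 against 453 to 737, and of 7 leukocyte markers, at 447 to 533 against 2.91 to 16.5. SCPs were higher in the summed FPKM of 5 erythroid markers, at 11823 to 60797 against 1867 to 2474. The sums were also higher in SCPs for 5 skeletal muscle markers, at 31.2 to 67.5 against 2.28 to 5.69. For 10 neuron markers they were at 38.4 to 66.4 against 24.6 to 35.4. Of single markers tested, 3 of 4 erythroid, 4 of 4 skeletal muscle and 2 of 7 neuron markers were called higher in SCPs, beside 22.4% of all genes. Hbb overlapped between the groups, and Alas2 was listed at 0 in all SCPs and above 0 in RSC replicates 1 and 3. In such bulk samples fewer cells of a type and less RNA per cell cannot be told apart.

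Of the 6 members, Ngfr and Sort1 rose in RSCs, Ntf3 fell, and Bdnf, Ntrk2 and Ntrk3 did not pass the test. Thus 3 of 6 were called, beside 40.5% of the 13003 genes tested, and 4 of 6 had groups that did not overlap, beside 58.6% of genes. Genes higher in RSCs made up 18.1% of those tested and genes higher in SCPs 22.4%, and under median-of-ratios scaling the number higher in RSCs went from 2351 of 5268 called genes to 2757 of 4964. The members' median log2 fold change was -0.052, and that of all genes tested was -0.17. The share of called members was near that background.

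**Figure D1:**
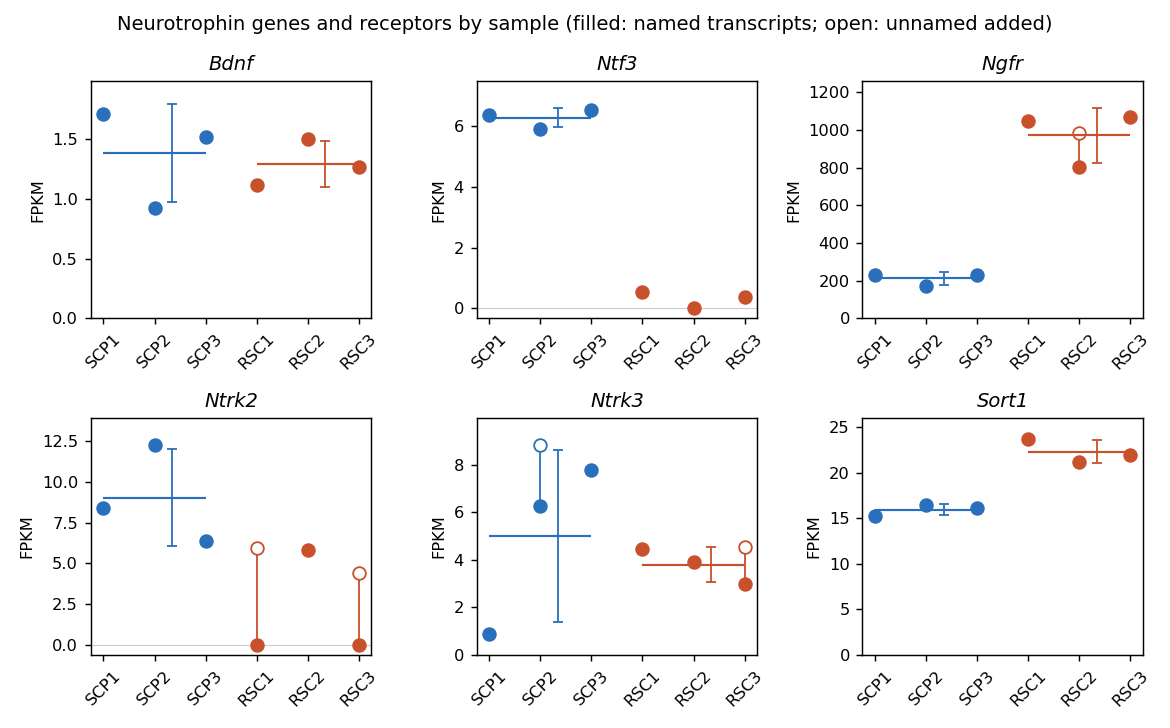
FPKM (linear axes) of the 6 genes in each SCP and RSC sample. Filled points are sums of named transcripts, open points add the unnamed transcripts at the gene, and lines with bars are the mean and SD of the filled points (n = 3), left out where a sample is listed at 0. Ngfr and Sort1 are higher in every RSC sample, Ntf3 is higher in every SCP sample, and the RSC points of Ntrk2 at 0 move to 5.93 and 4.42 FPKM once unnamed transcripts are added.

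The sequences before the start sites of the ligand genes are shown first, because both ligands were listed from several starts and these differed between samples. For Bdnf only the window of start 4 is printed. Ntf3, which encodes neurotrophin-3 (NT-3), has 6 transcripts with 5 annotated starts at rn6 chromosome 4, 158636883 to 158705964, the first 3 of which lie within 79 bases (outer starts), whereas the fourth lies 1794 bases inside (inner start). Bdnf, which encodes brain-derived neurotrophic factor, has 12 transcripts with 10 starts at rn6 chromosome 3, 100768637 to 100819216, all sharing the same 3′ end. The windows hold the 250 bases before a start, 5′ to 3′ on the gene's strand, from RefSeq on the GRCr8 build (reference strain BN). They were matched to the starts of the deposited tables by identical spacing. Capitals mark GGGCGG, the GC box, or TCACGTCA, the cAMP response element variant known from Bdnf, and both strands were searched.
Ntf3 outer start (NM_001270870.1), chr4:160670624-160670873, minus strand: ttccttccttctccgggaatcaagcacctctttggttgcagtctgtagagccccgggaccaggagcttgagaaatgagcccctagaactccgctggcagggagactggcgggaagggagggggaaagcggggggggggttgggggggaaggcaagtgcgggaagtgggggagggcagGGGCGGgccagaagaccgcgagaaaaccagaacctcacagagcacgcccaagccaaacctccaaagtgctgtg
Ntf3 inner start (NM_001270869.1), chr4:160668908-160669157, minus strand: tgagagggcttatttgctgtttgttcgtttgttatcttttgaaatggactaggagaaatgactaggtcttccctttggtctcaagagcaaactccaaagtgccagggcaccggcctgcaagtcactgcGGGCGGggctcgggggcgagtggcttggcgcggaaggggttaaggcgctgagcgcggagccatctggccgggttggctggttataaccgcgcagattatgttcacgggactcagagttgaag
Bdnf start 4 (NM_001270633.1), chr3:116637608-116637857, plus strand: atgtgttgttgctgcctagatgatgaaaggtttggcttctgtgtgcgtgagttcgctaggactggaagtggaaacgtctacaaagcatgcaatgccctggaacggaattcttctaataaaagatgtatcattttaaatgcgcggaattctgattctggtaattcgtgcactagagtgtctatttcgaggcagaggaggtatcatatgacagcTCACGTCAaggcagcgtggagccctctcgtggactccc
The GC box began at -73 in the outer window and at -122 in the inner window of Ntf3, counted back from the start, and 30.5% of all 33469 RefSeq promoter windows of this length hold one. The outer window was 62.8% G or C and the inner one 55.6%, against a median of 51.2% over all windows. TCACGTCA began at -38 before Bdnf start 4 and is held by 0.35% of all windows. No TGACGTCA (in 1.59% of windows), TGANTCA (in 6.34%) or TATAAA (in 12.9%) was found in these 3 windows. The motif ACAAAG, a SOX core in 16.3% of windows, began at -171 before Bdnf start 4. These matches describe the sequence only and are not shown to be binding sites.

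Ntf3 was the ligand that differed. NT-3 is the ligand of TrkC and an autocrine survival factor of Schwann cells. It was at 6.38, 5.92 and 6.54 FPKM in SCP replicates 1, 2 and 3, and at 0.526, 0 and 0.366 FPKM in RSC replicates 1, 2 and 3. The groups did not overlap, and every SCP sample was over 5 FPKM while every RSC sample was under 1 FPKM. Ntf3 fell by 2.51 ± 0.24 (SE) on the log2 scale in RSCs, with a 95% interval from -3.10 to -1.92 (limma, adjusted p = 4.9e-04, n = 3 and 3). RSC replicate 2 listed all Ntf3 transcripts at 0, which can be a failed estimate as well as a low level. Without any 1 sample the log2 fold change lay between -2.64 and -2.33, and with a pseudocount of 0.1 in place of 1 it was -4.37 (limma, adjusted p = 0.0059). The skeletal muscle markers Myod1 and Pax7 moved with Ntf3, at 8.36 to 14.3 and 0.918 to 3.11 FPKM in SCPs and listed at 0 in all 3 RSCs, and their part in the Ntf3 difference was not tested.

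The steady Ntf3 sum in SCPs was listed under different transcripts in each sample. From the inner start, whose window holds the GC box at -122, SCP replicates 1, 2 and 3 listed 6.38, 2.97 and 0 FPKM, and all RSCs were listed at 0. From the outer starts they listed 0, 2.95 and 6.54 FPKM, and RSC replicates 1, 2 and 3 listed 0.526, 0 and 0.366 FPKM. As listed, 1 SCP sample was thus wholly inner, another wholly outer and the remaining sample divided, while the sum moved only between 5.92 and 6.54 FPKM. Fragments shared by transcripts of a gene are divided between them by an estimate, so a difference in start use between samples is not shown. NM_001270869.1, the inner transcript with the highest level, did not pass the test by itself, with a log2 fold change of -1.62 ± 0.78 (SE) and a 95% interval from -3.54 to 0.29 (limma, adjusted p = 0.17 over all 17328 transcripts tested). Without SCP replicate 3 it was -2.44 and passed the test (limma, adjusted p = 0.011).

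Bdnf was low in both groups. BDNF is the ligand of TrkB and is made by Schwann cells of cut nerves. Its transcripts summed to 1.72, 0.929 and 1.52 FPKM in SCP replicates 1, 2 and 3 and to 1.12, 1.50 and 1.27 FPKM in RSC replicates 1, 2 and 3. All 3 RSC values lay within the range of the SCPs. The log2 fold change was -0.044 ± 0.24 (SE), with a 95% interval from -0.63 to 0.54 (limma, adjusted p = 0.90). As a fold of FPKM + 1 this interval runs from 0.647 to 1.45, which understates a fold of such low FPKM. With a pseudocount of 0.1 the log2 fold change was -0.059 ± 0.40 (SE). Under median-of-ratios scaling, with the pseudocount of 1, the sign turned to 0.075. The data do not exclude a difference within these bounds, or a larger fold of FPKM itself, in either direction.

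Of the 10 Bdnf starts, only starts 4 to 7, counted from the 5′ end, were above 0 in any sample. Start 6 (NM_001270630.1) was above 0 in all 6 samples, at 1.13, 0.929 and 0.379 FPKM in SCPs and at 0.797, 0.714 and 1.27 FPKM in RSCs. Start 4, the start after the TCACGTCA window, was listed at 0.583, 0 and 0.385 FPKM in SCPs and at 0 in all RSCs. Start 5 (NM_001270638.1) was listed at 0 in all SCPs and at 0.324, 0.790 and 0 FPKM in RSCs, and start 7 (XM_006234684.2) only in SCP replicate 3, at 0.759 FPKM. Each start seen in 1 group was thus listed at 0 in at least 1 sample of that group too. The share of start 6 in the gene was 66.0%, 100% and 24.9% in SCPs and 71.1%, 47.5% and 100% in RSCs, and the shares overlapped (exact two-sided permutation test, p = 0.8, smallest possible p 0.1). Such values rest on thin coverage. For NM_001270630.1 in SCP replicate 1 the 95% interval given by Cufflinks ran from 0.632 to 1.67 FPKM.

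**Figure D2:**
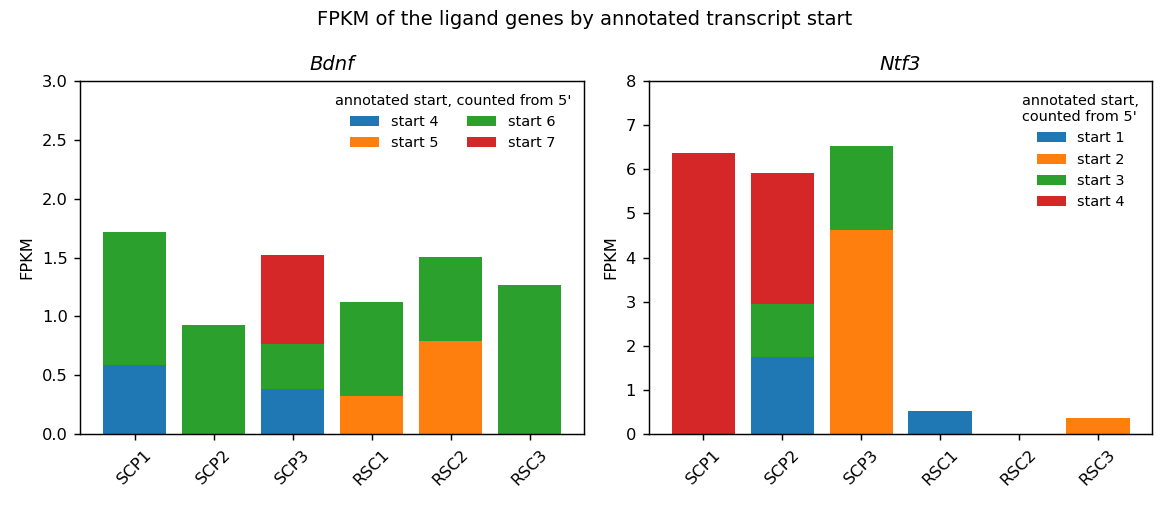
FPKM of Bdnf (left) and Ntf3 (right) in each sample, stacked by the annotated transcript start, counted from the 5′ end. Bars are single samples without error. The Ntf3 bars of the 3 SCPs have nearly equal heights of 5.92 to 6.54 FPKM but different colours, and Bdnf start 6 appears in all 6 samples.

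Ntf4, which encodes NT-4, the other TrkB ligand, was under the filter of a mean of 1 FPKM, at 0.305, 0.285 and 0.483 FPKM in SCPs and 0.185, 0 and 0 FPKM in RSCs.

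Ngfr had the highest level and the largest rise of the members. The p75 receptor binds all neurotrophins and has no kinase. Its only transcript (NM_012610.2, rn6 chromosome 10, 83389835 to 83408061) was at 233, 173 and 231 FPKM in SCP replicates 1, 2 and 3 and at 1046, 803 and 1068 FPKM in RSC replicates 1, 2 and 3. Every RSC sample was more than 3 times the SCP mean of 212 ± 33.8 FPKM (SD, n = 3), and the RSC mean was 972 ± 147 FPKM (SD, n = 3). The log2 fold change was 2.19 ± 0.17 (SE), a 4.56-fold rise with a 95% interval from 3.44 to 6.05 (limma, adjusted p = 2.2e-04). In RSC replicate 2 an unnamed transcript at the same place held a further 184 FPKM, and with it the sample stood at 986 FPKM and the log2 fold change at 2.29 (limma, adjusted p = 1.6e-05). Sox10 fell in RSCs by 0.30 on the log2 scale (limma, adjusted p = 0.0077), while S100b, a marker of later Schwann cells, went from 3.21, 11.7 and 19.3 FPKM to 924, 782 and 843 FPKM. The fibroblast and leukocyte markers above also rose with Ngfr, although adhesive cells had been removed on uncoated flasks, and their part in its rise was not tested.

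Sort1 rose in RSCs by a small and even amount. Sortilin is a VPS10 domain receptor that sorts proteins in the Golgi and is the co-receptor of p75 for neurotrophin precursors. Summed over its transcripts (rn6 chromosome 2, 211077572 to 211156312) it was at 15.3, 16.5 and 16.1 FPKM in SCPs and at 23.7, 21.2 and 22.0 FPKM in RSCs. The groups did not overlap and varied little, with means of 15.9 ± 0.611 and 22.3 ± 1.27 FPKM (SD, n = 3 each). The log2 fold change was 0.46 ± 0.10 (SE), a 1.37-fold rise with a 95% interval from 1.15 to 1.63 (limma, adjusted p = 0.013). The call ended without SCP replicate 1 (limma, adjusted p = 0.032), without RSC replicate 1 (adjusted p = 0.041) or without RSC replicate 3 (adjusted p = 0.036), while the log2 fold change stayed between 0.41 and 0.49.

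Of the 4 Sort1 transcripts 1 passed the test. NM_031767.1 was at 11.5, 13.8 and 12.6 FPKM in SCPs and at 19.8, 17.8 and 18.4 FPKM in RSCs, and rose by 0.53 ± 0.13 (SE) on the log2 scale (limma, adjusted p = 0.025). That call ended in 5 of the 6 fits that left out 1 sample, all but the one without SCP replicate 2. XM_006233195.2, which starts 762 bases further out, was at 3.78, 2.72 and 3.44 FPKM in SCPs and at 3.88, 3.33 and 3.60 FPKM in RSCs, with a log2 fold change of 0.10 ± 0.23 (SE) and a 95% interval from -0.47 to 0.67 (limma, adjusted p = 0.78). The other 2 transcripts were listed at 0 in all samples. NM_031767.1 made up 75.3%, 83.5% and 78.6% of the gene in SCPs and 83.6%, 84.3% and 83.6% in RSCs. The shares just failed to overlap (exact two-sided permutation test, p = 0.1, the smallest that 3 against 3 can give). Of the members' 33 transcripts 14 were above 0 in any sample, 6 reached the mean of 1 FPKM and 2 of these were called, NM_012610.2 and NM_031767.1, beside 29.4% of all transcripts tested.

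Ntrk2 was lower in RSCs by its values but did not pass the test. TrkB has a kinase form and truncated forms, and the tables do not say which protein a transcript encodes. Of its 6 transcripts (rn6 chromosome 17, 5934690 to 6245662) only NM_001163168.2 was above 0, at 8.42, 12.3 and 6.40 FPKM in SCPs and at 0, 5.84 and 0 FPKM in RSCs. The groups did not overlap, and RSC replicate 2 was close to the lowest SCP sample. The log2 fold change was -2.36 ± 0.81 (SE), with a 95% interval from -4.34 to -0.38 (limma, adjusted p = 0.055), and with a pseudocount of 0.1 it was -4.50 (limma, adjusted p = 0.078). Without RSC replicate 2, the 1 RSC sample above 0, it was -3.28 and passed the test (limma, adjusted p = 0.0024).

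The RSC samples listed at 0 held unnamed transcripts at the Ntrk2 position. An unnamed transcript lay at 6114598 to 6245736 in RSC replicate 1, at 5.93 FPKM with a Cufflinks 95% interval from 5.05 to 6.81, and at 6114598 to 6245662 in RSC replicate 3, at 4.42 FPKM with an interval from 3.72 to 5.16. Both end at the same 3′ base as NM_001163168.2, which lies 179908 bases short of the end of the longest transcript. With these added RSC replicates 1, 2 and 3 were at 5.93, 5.84 and 4.42 FPKM, all below the SCPs but close to SCP replicate 3. The log2 fold change shrank to -0.62 ± 0.24 (SE), with a 95% interval from -1.19 to -0.046 (limma, adjusted p = 0.056). With these transcripts and without any 1 sample it lay between -0.81 and -0.39, the latter without SCP replicate 2. The size of the Ntrk2 difference therefore depended on whether these unnamed transcripts were counted.

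Ntrk3 varied more within SCPs than between the groups. TrkC is the receptor of NT-3 and, as TrkB, has kinase and truncated forms. Its named transcripts (rn6 chromosome 1, 139890537 to 140262503) summed to 0.899, 6.28 and 7.78 FPKM in SCPs and to 4.45, 3.93 and 3.00 FPKM in RSCs. SCP replicate 1 was below every RSC sample, and the other SCPs were above all of them. The log2 fold change was -0.059 ± 0.60 (SE), with a 95% interval from -1.54 to 1.43 (limma, adjusted p = 0.95), and it turned to 0.095 under median-of-ratios scaling. Without SCP replicate 1 it was -0.75 (limma, adjusted p = 0.057), so the size and sign of the value turned on single SCP samples.

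Nearly all Ntrk3 FPKM lay in XM_008759513.1, an entry that stops 99719 bases inside the longer transcripts at one end. In SCP replicate 1 it was at 0.899 FPKM with a Cufflinks 95% interval from 0.473 to 1.33, far below the 3.66 FPKM (2.71 to 4.61) of RSC replicate 1. The longer NM_019248.2 was listed only in RSC replicate 1, at 0.791 FPKM, and NM_001270655.1 and NM_001270656.1 were listed at 0 throughout. Unnamed transcripts added 2.55 FPKM in SCP replicate 2 and 1.52 FPKM in RSC replicate 3, but none was assigned to Ntrk3 in SCP replicate 1, so its low value stayed. SCP replicate 1 was also the lowest SCP sample in the Schwann cell lineage, fibroblast, leukocyte, endothelium, mural cell, skeletal muscle and erythroid marker sums. It was the highest in the neuron and perineurial cell sums, and the part of these cells in the low Ntrk3 value was not tested.

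**Figure D3:**
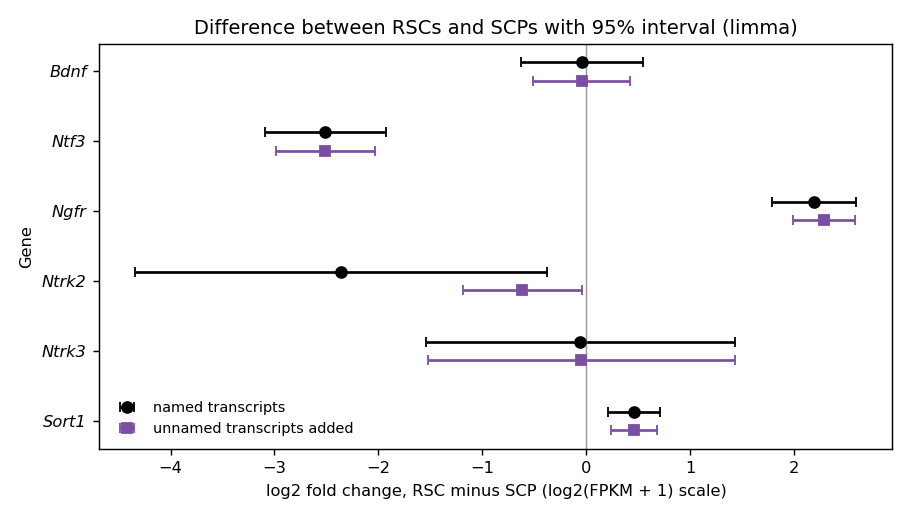
Log2 fold change of each gene, RSC minus SCP, on the log2(FPKM + 1) scale, with its 95% interval from limma (3 and 3 samples), for named transcripts (black circles) and with unnamed transcripts added (purple squares). The value of Ntrk2 moves from -2.36 to -0.62, and the intervals of Bdnf and Ntrk3, whose sign turns under median-of-ratios scaling, hold 0.

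The order of the levels, which FPKM allows per length of transcript, was the same at the top in both groups and differed below. In SCPs it ran Ngfr, Sort1, Ntrk2, Ntf3, Ntrk3 and Bdnf by the group means of 212, 15.9, 9.03, 6.28, 4.99 and 1.39 FPKM. Neighbours from Ntrk2 to Bdnf overlapped in their samples. In RSCs it ran Ngfr, Sort1, Ntrk3, Ntrk2, Bdnf and Ntf3, where Ntrk3 overlapped with Ntrk2 and Ntrk2 with Bdnf. With unnamed transcripts added Ntrk2 stood before Ntrk3 in RSCs too, with means of 5.40 and 4.30 FPKM and overlapping samples. Of the ligands, Ntf3 was above Bdnf in each SCP sample and below it in each RSC sample. With unnamed transcripts added to all genes 3 members were called, Ngfr, Ntf3 and Sort1, beside 57.4% of 14019 genes.

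Other genes whose pattern over the 6 samples was most like that of a member were found by the root mean square (r.m.s.) difference of mean-centred log2(FPKM + 1). Sys1 and Chmp1b were nearest to Sort1, at 0.025 and 0.037, and Adamts4 and Crp were nearest to Ngfr, at 0.11 and 0.13. Ube2c and Galnt18 were nearest to Ntf3, at 0.12 and 0.14, and Spint2 and Tmem8b to Bdnf, at 0.065 and 0.066. Those nearest to Ntrk3, Tmem38a at 0.088 and Cacnb1 at 0.17, were both listed at 0 in SCP replicate 1, where Ntrk3 was low. Those nearest to Ntrk2, LOC100912167 at 0.32 and Pmel at 0.33, were both listed at 0 in RSC replicates 1 and 3, as named Ntrk2 was.

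Among the enzymes that cleave neurotrophin precursors 2 of 6 tested rose in RSCs and none fell, with a median log2 fold change of 0.22, beside 18.1% of all genes higher in RSCs. With unnamed transcripts added 3 of 6 rose, beside 3251 of 14019 genes called higher in RSCs. The third was Pcsk6, a proprotein convertase named after its values were seen. Its log2 fold change turned from -0.84 (limma, adjusted p = 0.26) to 1.26 (limma, adjusted p = 8.9e-04). Plat encodes the tissue plasminogen activator, which turns plasminogen (Plg) into plasmin, and plasmin cleaves neurotrophin precursors outside the cell. Plat went from 78.4, 81.1 and 82.4 FPKM to 283, 254 and 257 FPKM, a log2 fold change of 1.70 ± 0.071 (SE, limma, adjusted p = 3.4e-05). Plg itself was under the filter, at 0.205, 0 and 0 FPKM in SCPs and at 0.166, 0.151 and 0.0801 FPKM in RSCs. Mmp9, a matrix metalloproteinase, rose by 1.17 ± 0.29 (SE) on the log2 scale from a level under 1 FPKM (limma, adjusted p = 0.018). It moved together with the leukocyte markers, whose part was not tested.

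Of the other VPS10 domain receptors 1 of 4 rose and none fell at the threshold, with a median of -0.28. Beside this stand 18.1% of all genes called higher in RSCs and 22.4% called higher in SCPs. Sorcs2, which like sortilin can pair with p75, was at 11.5, 8.58 and 9.14 FPKM in SCPs and at 114, 84.8 and 109 FPKM in RSCs, so that its RSC level was above that of Sort1 while its SCP level was below. Its log2 fold change was 3.27 ± 0.16 (SE, limma, adjusted p = 5.7e-05), and 2.82 with unnamed transcripts added. Sorcs3 was at 0.524, 2.37 and 3.12 FPKM in SCPs and listed at 0 in all RSCs (limma, adjusted p = 0.030), Sorl1 had a log2 fold change of -0.93 (adjusted p = 0.026) and Sorcs1 one of 0.36 (adjusted p = 0.49). None of these 3 passed the test. With unnamed transcripts added Sorl1 (limma, adjusted p = 0.0071) and Sorcs3 (adjusted p = 0.013) fell at the threshold. This gave 1 rise and 2 falls, beside 57.4% of all genes called in either direction. Sorcs1 turned to -0.074 (limma, adjusted p = 0.73).

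The genes that work with p75 moved in both directions, 3 of 21 tested rising in RSCs and 3 falling, with a median of 0.27. Ncstn, a subunit of the gamma-secretase that cleaves p75 in the membrane, rose by 0.90, Arhgdia, a GDP dissociation inhibitor that p75 binds, by 0.56, and Rhoa by 0.55 on the log2 scale (limma, adjusted p at most 0.0046). Traf4, an adaptor of the TRAF family, fell from 151, 115 and 136 FPKM to 8.22, 11.4 and 13.2 FPKM, and Ngfrap1, which encodes a p75-associated cell death executor, from 191, 177 and 157 FPKM to 24.4, 29.7 and 33.5 FPKM. Their log2 fold changes were -3.52 and -2.55 (limma, adjusted p = 7.1e-05 and 7.2e-05), and Maged1 had one of -0.98 (limma, adjusted p = 0.0038). The co-receptor genes for myelin inhibitors were low and did not pass the test, Rtn4r with 0.27 (95% interval -0.31 to 0.85), Lingo1 with -0.18 (-1.05 to 0.70) and Tnfrsf19 with -0.68 (-2.43 to 1.07). With unnamed transcripts added again 3 rose and 3 fell, while Lingo1 turned to 0.34 and Tnfrsf19 to 0.11, neither of which passed.

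Of the Trk adaptors and kinases 4 of 34 tested rose and 3 fell, with a median of -0.20. With unnamed transcripts added 6 rose and 8 fell, with a median of -0.21. Shc4, an adaptor of the Shc family, was listed at 0 in all SCPs and at 23.2, 32.0 and 37.8 FPKM in RSCs (limma, adjusted p = 4.0e-05), so no fold is given. Mapk3, the kinase ERK1, went from 110, 123 and 111 FPKM to 341, 315 and 368 FPKM, and Shc2 rose by 0.61 on the log2 scale (limma, adjusted p = 0.0089). Plcg1, the phospholipase that binds activated Trk receptors, fell from 79.8, 61.6 and 66.7 FPKM to 18.0, 14.5 and 21.9 FPKM, a log2 fold change of -1.89 ± 0.18 (SE, limma, adjusted p = 4.8e-04). Mapk7, the kinase ERK5, and Cbl, a ubiquitin ligase, fell by 0.67 and 0.62 on the log2 scale (limma, adjusted p = 0.017 and 0.020), but Cbl lost its call with unnamed transcripts added (limma, log2 fold change -0.34, adjusted p = 0.047). These shares of called genes, 7 of 34 and 6 of 21, stand beside 40.5% of all genes, and those with unnamed transcripts, 14 of 34 and 6 of 21, beside 57.4%.

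**Figure D4:**
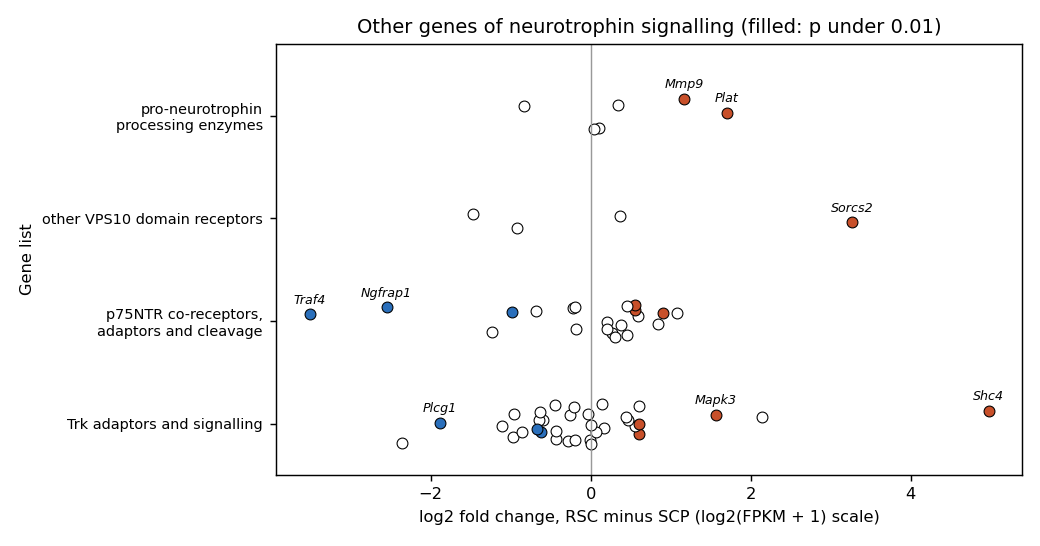
Log2 fold change, RSC minus SCP, on the log2(FPKM + 1) scale, of each tested gene in 4 lists of neurotrophin signalling genes. Each point is a gene, blue filled points were called higher in SCPs and orange filled points higher in RSCs (limma, p under 0.01), and open points were not called. Sorcs2 at 3.27 and Traf4 at -3.52 lie far out on either side, and the position of Shc4 depends on the added 1 because its SCP values are 0.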

How the data were processed

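The RNA of 3 SCP and 3 RSC samples was sequenced by the authors as stranded, paired-end mRNA libraries. The deposited tables give FPKM and read coverage, a signal, per transcript, which the authors made with TopHat2 2.1.0 and Cufflinks 2.2.1 on rn6 after FastQC 0.11.2, per the labels. Each table holds 61743 named reference transcripts, of which 77 with names turned into dates were left out, and 8815 to 12417 unnamed transcripts assembled in that sample, which held 18.6% to 31.9% of FPKM. FPKM were summed by symbol. Genes that averaged 1 FPKM or more were tested with limma 3.58.1 (R 4.3.3, two-sided, variance trend), RSC minus SCP, with the Benjamini-Hochberg adjustment across every gene or transcript tested. Tables and exact tests used pandas 2.3.3 and scipy 1.17.1. In a test on simulated data of 13003 genes, 86.5% of 200 genes changed by a log2 fold change of 3 were called, and 1.07% of unchanged genes. Replicate numbers come from the sample titles. Named were the 6 members, their transcripts, Ntf4 and fixed co-receptors, up to 3 called genes per list and direction, and the 2 nearest patterns per member, and certain genes of this rule are left out here. Members and lists were chosen with earlier results of these data known, and lists were written from general knowledge. Coordinates count from 1.

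The settings varied were the pseudocount (0.1), the filter (none, or a mean of 5 FPKM), quantile and median-of-ratios scaling, no variance trend, a replicate block, leaving out single samples, taking only the highest transcript of a gene, unnamed transcripts added to the gene they overlap most, and an adjusted p under 0.05. Adding unnamed transcripts together with leaving out samples for Ntrk2, and counting the gene lists with unnamed transcripts, were chosen after seeing the data.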

Additional observations from a re-analysis of the deposited data

Results flagged for a closer look

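Transcripts without a gene name were not part of the summed gene levels, and 5 of them at the members had a Cufflinks 95% interval above 0. At Ngfr RSC replicate 2 held 184 FPKM in such a transcript, with an interval from 168 to 192, beside 803 FPKM in the named one. At Ntrk2 RSC replicates 1 and 3 held 5.93 and 4.42 FPKM in unnamed transcripts while their named transcripts were listed at 0. At Ntrk3 SCP replicate 2 held 2.55 FPKM (interval 1.35 to 3.71) and RSC replicate 3 held 1.52 FPKM (interval 0.382 to 2.67). No unnamed transcript was assigned to Bdnf, Ntf3 or Sort1. Groups of 3 samples were too small for a check of single samples that stand apart.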

How the results depend on the processing

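Adding unnamed transcripts moved the number of called genes from 5268 to 8040, and the median log2 fold change of all genes tested went from -0.17 to 0.0053 under median-of-ratios scaling. Under that scaling Bdnf turned to 0.075 and Ntrk3 to 0.095, and with a pseudocount of 0.1 Ntrk3 turned to 0.059, while Ntf3 moved to -4.37 and Ntrk2 to -4.50. Leaving out each sample in turn gave 4460 to 4874 called genes and 2 to 4 called members, with log2 fold changes of -0.19 to 0.056 for Bdnf, -2.64 to -2.33 for Ntf3, 2.05 to 2.32 for Ngfr, -3.28 to -1.90 for Ntrk2, -0.75 to 0.35 for Ntrk3 and 0.41 to 0.49 for Sort1. Of single transcripts, XM_008759513.1 of Ntrk3 ranged from -0.83 to 0.28, XM_006233195.2 of Sort1 from -0.0021 to 0.18, and NM_031767.1 of Sort1, whose call ended in 5 of the 6 fits, from 0.47 to 0.59. Ngfr and Ntf3 kept their direction and their call in every alternative that gave a value. A mean of at least 5 FPKM left out Bdnf, Ntf3 and Ntrk3, and the highest transcript per gene left out Bdnf.

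With the replicate number as a block 4275 genes were called. Sort1 kept its log2 fold change of 0.46 but lost its call (limma, adjusted p = 0.056), as did its transcript NM_031767.1 (0.53, adjusted p = 0.094). Over all genes tested, deviations from the group means correlated at 0.044, -0.0049 and 0.026 between same-numbered samples. A correlation over all genes cannot tell whether the numbers pair the samples for a part of the genes. The causes of these moves were not tested. The depth is unknown, so the number of fragments behind levels near or under 1 FPKM, those of Bdnf among them, cannot be given. Cufflinks intervals are given per transcript and not for the summed gene levels.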
